A study of Drosophila melanogaster with 9 samples.

Results

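The genes described here encode the larval serum proteins and the fat body proteins of Drosophila melanogaster. They are the 6 genes *Lsp1alpha*, *Lsp1beta*, *Lsp1gamma*, *Lsp2*, *Fbp1* and *Fbp2*, chosen by name among the 15228 genes of the count table. All 6 were found in the table. Their RNA was measured in whole late embryos, by sequencing polyadenylated RNA in 9 samples, 3 from control embryos, 3 from *pri* mutants and 3 from *ken* mutants. The methods of the study give stage 16 for these data, and its results also name the stage before. The control embryos are labelled WT, their titles begin with w, and no mutant chromosome is named for them. The *pri* mutants carry the allele *pri* S18.1. The *ken* mutants carry *ken1* over the deficiency Df(2R)BSC660, which removes *ken* together with genes beside it. No allele or treatment is shared by the 3 genotypes, each mutant is represented by 1 allele combination, and every sample is a pool of embryos. The study calls the samples of a genotype independent. Whether the genetic background of the control stock differs from that of the mutants in more than the named alleles was not tested.

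Larval serum proteins are hexamerins, storage proteins related to the hemocyanins of other arthropods. The larval fat body, which serves the fly as liver and adipose tissue, makes them during the last larval instar and releases them into the hemolymph. Before the pupa forms, the fat body takes them up again, and their amino acids are used to build adult tissues. *Lsp1alpha*, *Lsp1beta* and *Lsp1gamma* encode the subunits of one serum hexamer, and *Lsp2* encodes the subunit of another. *Fbp1* encodes the fat body receptor that takes up the LSP1 protein, and its gene is known as a target of ecdysone in the late larva. *Fbp2* encodes a relative of alcohol dehydrogenase that the late larval fat body also makes. *pri* encodes small peptides that act downstream of ecdysone, and *ken* encodes a zinc finger transcriptional repressor.

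The libraries held 21048610 to 28859395 counts assigned to genes. Levels are given as normalized counts, which are the counts of a sample divided by its size factor for sequencing depth. Genotypes were compared with edgeR's quasi-likelihood test over all 15228 genes, and a gene was called at a Benjamini-Hochberg adjusted p under 0.05. *ken* itself stood between 6432 and 7431 normalized counts in control samples, between 5678 and 8132 in *pri* samples and between 1184 and 1338 in *ken* samples (*ken* against control, log2 fold change −2.49, adjusted p = 2.54e-05). The summed level of 25 digestive enzyme genes of the midgut was 24262 normalized counts in *pri* sample 1 and between 2284 and 7716 in the other 8 samples.

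Only 1 of the 6 genes changed by this test. *Lsp1gamma* rose in both mutants, and no member fell. In *pri* against control, 1 of the 6 was called higher, where 3.68% of all genes were, and 0 were called lower, where 3.83% of all genes were. In *ken* against control, 1 of the 6 was called higher, where 2.21% of all genes were, and 0 were called lower, where 2.81% of all genes were. At an unadjusted p under 0.05, edgeR gave 2 of the 6 in *pri* and 1 of the 6 in *ken*, and the DESeq2 Wald test with adjusted p called 1 of the 6 in each mutant. In *pri* against *ken*, 0 of the 6 were called by edgeR, where 8.12% of all genes were called in one direction or the other. In that comparison 1 of the 6 had an unadjusted p under 0.05 by edgeR and 1 was called by DESeq2. For the unadjusted p and for DESeq2 no share over all genes is given. These counts, and such counts in the gene lists below, can therefore not be set against a background. Both mutants were compared with the same control samples. For a change shared by both, such as that of *Lsp1gamma*, an effect of the mutations and a difference between the stocks cannot be told apart. The median log2 fold change of the 6 genes was 1.25 in *pri* and 1.19 in *ken*, against 0.016 and 0.011 over all genes, but this median rests on genes with very few counts. It was the same, 1.25 and 1.19, without *Lsp1alpha* and *Lsp2*, whose control samples held 0 and 2 counts. It could not differ, because these genes lie on opposite sides of the median in both comparisons. The median falls between *Lsp1beta* and *Fbp2*, which had 29 and 27 counts in all. In 3359 genes with a mean under 5 normalized counts, to which 4 of the 6 belong, edgeR called 0.834% in *pri* and 0.744% in *ken*, against 12.8% and 10.7% of the 1538 genes with a mean from 20 to 100.

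The members were among the weakly represented genes of these embryos. Over the 9 samples together, *Lsp1gamma* had 580 counts, *Fbp1* 153, *Lsp1beta* 29, *Fbp2* 27, and *Lsp1alpha* and *Lsp2* each 6. *Lsp1gamma* and *Fbp1* passed a filter of 10 counts in 3 samples, as 2 of the 6. The mean of *Lsp1gamma* over all samples lay at the 38.5 percentile of the genes in the table, and that of *Lsp2* at the 7.57 percentile. Per kilobase of annotated exon, the control level was 11.0 ± 2.92 normalized counts for *Lsp1gamma*, 5.24 ± 3.30 for *Fbp1*, 1.18 ± 0.443 for *Fbp2*, 0.739 ± 0.469 for *Lsp1beta* and 0.307 ± 0.532 for *Lsp2* (SD, n = 3 each), with *Lsp1alpha* at 0. In that order, each gene lies within the spread of the next from *Fbp2* down to *Lsp2*. The mean of *Lsp1gamma* exceeded that of *Fbp1* by less than the sum of their SDs. Per kilobase, *pri* samples had 38.5 ± 4.39 for *Lsp1gamma*, 4.45 ± 2.79 for *Fbp2*, 1.24 ± 0.270 for *Fbp1* and 1.18 ± 0.0593 for *Lsp1beta*, and *ken* samples had 28.6 ± 4.65 for *Lsp1gamma*, 7.86 ± 8.19 for *Fbp1*, 2.98 ± 2.94 for *Fbp2* and 1.66 ± 0.667 for *Lsp1beta* (SD, n = 3 each). *Lsp1gamma* was thus the highest of the 6 in every genotype by its mean per kilobase.

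**Figure D1:**
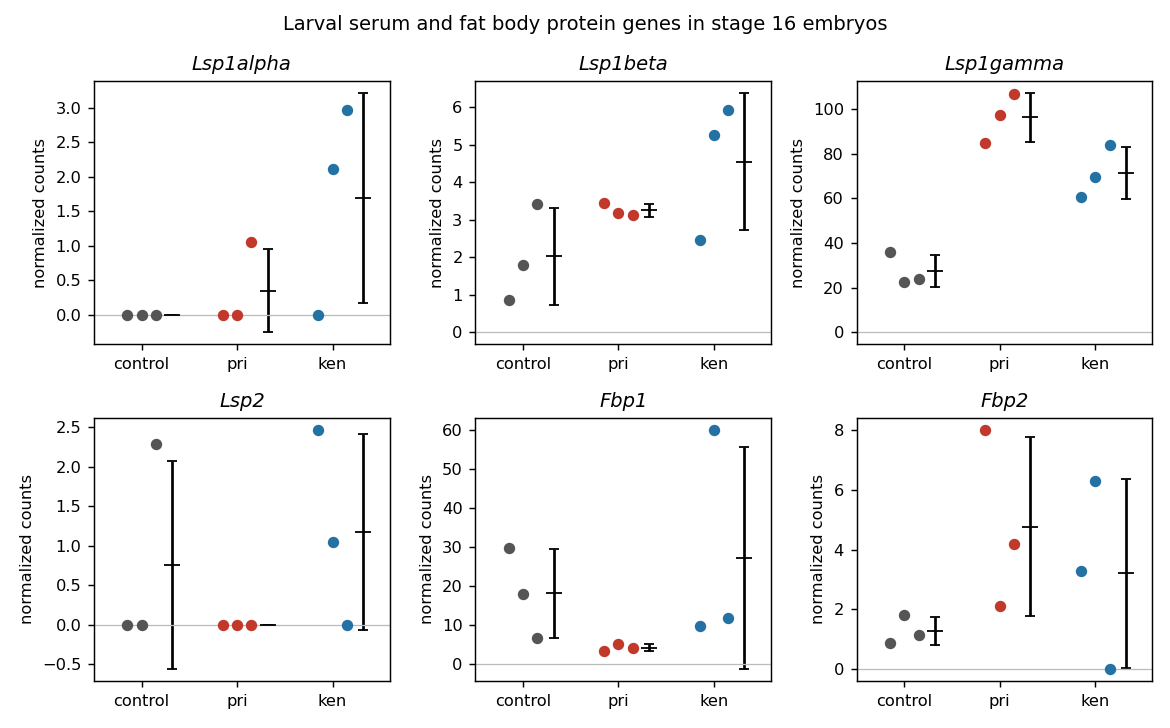
Normalized counts of the 6 genes in each sample, with 1 point per sample, samples 1 to 3 from left to right, and the mean and SD of each genotype (n = 3) in black. Each panel has its own scale. All *pri* and *ken* samples of *Lsp1gamma* (60.9 to 106.7) lie above the control samples (22.5 to 35.8), and the other panels show how few counts lie behind *Lsp1alpha*, *Lsp1beta*, *Lsp2* and *Fbp2*.

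*Lsp1gamma* (FBgn0002564) lies on 3L of dm6 from 66430 to 68995 on the plus strand, near the end of the chromosome arm. Its exons hold 2501 bases and overlap no other annotated gene. The control samples had 35.8, 22.5 and 24.0 normalized counts, the *pri* samples 84.8, 97.5 and 106.7, and the *ken* samples 60.9, 69.5 and 83.9. All 6 mutant samples lay above all control samples, without overlap. A complete separation upwards was seen in 15.5% of all genes for *pri* against control and in 12.3% for *ken* against control.

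The rise of *Lsp1gamma* was 3.49-fold in *pri*, from 27.4 ± 7.30 to 96.3 ± 11.0 normalized counts (SD, n = 3), a log2 fold change of 1.80 (standard error 0.24, 95% interval 1.26 to 2.35, adjusted p = 0.00273 from edgeR). In *ken* it was 2.58-fold, to 71.4 ± 11.6 normalized counts (SD, n = 3), a log2 fold change of 1.37 (standard error 0.24, 95% interval 0.83 to 1.91, adjusted p = 0.0120). In *pri* the call held under all 18 alternatives, with log2 fold changes of 1.68 to 2.05. In *ken* it held under 15 of 18. It was lost without control sample 2 (log2 fold change 1.24, adjusted p = 0.0545), without control sample 3 (1.29, adjusted p = 0.0587) and without *ken* sample 3 (1.24, adjusted p = 0.05002), with values of 1.24 to 1.62 over all alternatives. Every *pri* sample was above every *ken* sample, as in 13.8% of all genes, by 0.43 on the log2 scale (standard error 0.23, 95% interval −0.08 to 0.95), and this difference between the mutants did not pass the test (adjusted p = 0.307). Without *pri* sample 1 and *ken* sample 1, whose midgut sums were the highest of their genotypes, *Lsp1gamma* stood at 1.88 in *pri* and 1.47 in *ken* on the log2 scale.

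**Figure D2:**
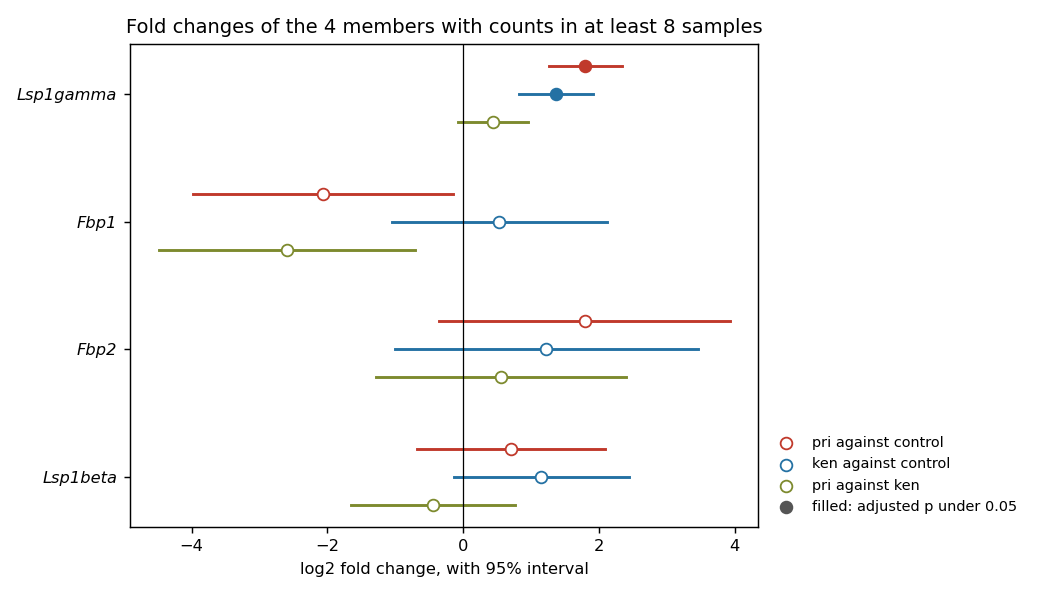
log2 fold changes (horizontal axis) with 95% intervals from edgeR for the 4 genes that had counts in at least 8 of the 9 samples, for each mutant against control and for the mutants against each other. The filled points of *Lsp1gamma* at 1.80 and 1.37 passed the test and all open points did not. The intervals of *Fbp2* and *Lsp1beta* include 0 in each comparison.

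The other subunits of the Lsp1 hexamer were close to absent. *Lsp1beta* (FBgn0002563) lies on 2L of dm6 from 898500 to 901316 and had counts in all 9 samples. Its levels were 0.873, 1.80 and 3.42 normalized counts in control samples, 3.44, 3.18 and 3.14 in *pri* samples and 2.47, 5.26 and 5.92 in *ken* samples. The genotypes overlapped. The log2 fold change by edgeR was 0.71 in *pri* (95% interval −0.67 to 2.09, adjusted p = 0.565) and 1.15 in *ken* (95% interval −0.14 to 2.44, adjusted p = 0.350). Each interval includes the size of the change of *Lsp1gamma* in that mutant as well as 0.

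*Lsp1alpha* (FBgn0002562) lies on X of dm6 from 12490291 to 12492982. It had 0 counts in every control sample, 0, 0 and 1 counts in *pri* samples and 0, 2 and 3 counts in *ken* samples. A count of 0 allows up to 3 counts over a group of samples, against 5 counts in the *ken* group. The exact 95% interval of the ratio of *ken* to control counts begins at 0.904 and so includes equal levels. edgeR gave adjusted p = 0.324 in *ken*. No fold is given for *pri*, with 1 count. The genes for the Lsp1 subunits are related in sequence, and whether reads of one could have been assigned to another was not checked.

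*Lsp2* (FBgn0002565) lies on 3L of dm6 from 12129393 to 12131869. It had 0, 0 and 2 counts in control samples, 0, 0 and 0 in *pri* samples and 3, 1 and 0 in *ken* samples, and the genotypes overlapped. The ratio of *ken* to control was 1.97 with an exact 95% interval of 0.283 to 21.8. The antisense gene *asRNA:CR11538*, on the opposite strand, covers 2096 bases of *Lsp2*, or 84.6% of its exons. Of 75 protein-coding genes whose exons are wholly covered by a gene on the opposite strand, 5 (6.67%) were in the table, and of 327 covered by a gene on the same strand, 3 (0.917%) were, against 91.9% of all 13986 protein-coding genes. Of 49 protein-coding genes with 80 to 90% of their exons covered on the opposite strand and none on their own, *Lsp2* included, 25 (51.0%) were in the table and 3 (6.12%) had a mean of at least 100 normalized counts, which 62.7% of all protein-coding genes had. The part of this overlap in the low counts of *Lsp2* was not tested, and its 6 counts may be too low.

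*Fbp1* (FBgn0000639), the gene of the receptor, lies on 3L of dm6 from 14094589 to 14098053 on the minus strand and overlaps no other annotated gene. Its control samples had 29.7, 18.0 and 6.84 normalized counts, its *pri* samples 3.44, 5.30 and 4.18, and its *ken* samples 9.87, 60.0 and 11.8. The *pri* samples were all below the control samples, as in 15.6% of all genes, and all below the *ken* samples, as in 12.7% of all genes. Control samples were spread over a range in which the lowest came near the highest *pri* sample, and *ken* sample 2 stood far above the other *ken* samples.

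The log2 fold change of *Fbp1* in *pri* was −2.07 (standard error 0.85, 95% interval −3.98 to −0.15), with an unadjusted p of 0.0375 and an adjusted p of 0.193 from edgeR. It was not called under any of the 18 alternatives, with adjusted p from 0.058 to 0.458. In *ken* the value was 0.53 (standard error 0.70, 95% interval −1.05 to 2.12, adjusted p = 0.765), and without *ken* sample 2 it was −0.76 (adjusted p = 0.557). In *pri* against *ken* it was −2.60 (standard error 0.84, adjusted p = 0.0997) by edgeR, and −2.65 with adjusted p = 0.0266 by DESeq2, the one alternative under which it was called. *Fbp1* and *Lsp1gamma* thus differed in the direction of their values in *pri* samples, but of these values that of *Lsp1gamma* passed the test and that of *Fbp1* did not.

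*Fbp2* (FBgn0000640) lies on 2L of dm6 from 9426784 to 9427917, and shares 48 bases, 4.47% of its exons, with *CG42847* on the same strand. Its levels were 0.873, 1.80 and 1.14 normalized counts in control samples, 8.02, 2.12 and 4.18 in *pri* samples and 3.29, 6.32 and 0 in *ken* samples. Every *pri* sample was above every control sample, as in 15.5% of all genes, while the *ken* samples overlapped with them. The log2 fold change was 1.79 in *pri* (95% interval −0.35 to 3.93, adjusted p = 0.312) and 1.23 in *ken* (95% interval −1.005 to 3.46, adjusted p = 0.588). The 3 control samples together held 4 counts of *Fbp2* and the 3 *pri* samples 13.

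Summed over the 6 genes, the level was 67.2, 44.05 and 37.6 normalized counts in control samples, 99.7, 108 and 119 in *pri* samples and 79.0, 144 and 105 in *ken* samples. Both mutants lay above the controls. The composition of this sum differed between samples. *Lsp1gamma* made up 53.2%, 51.0% and 63.6% of it in control samples, 85.1%, 90.2% and 89.5% in *pri* samples and 77.1%, 48.2% and 80.2% in *ken* samples. The low share in *ken* sample 2 goes with its *Fbp1* level of 60.0.

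In RNA of whole embryos, a change in the number of fat body cells and a change in RNA per cell cannot be told apart. *Lsp1gamma* was also set against other genes of the fat body. Of 16 genes for lipid storage, lipoproteins and fat synthesis that were in the table, 1 rose and 1 fell in *pri*, and 2 rose and 2 fell in *ken*. Their median log2 fold change was −0.045 in *pri* and 0.013 in *ken*. Their summed level was 109001 to 134037 normalized counts in control samples, 108276 to 124573 in *pri* samples and 91908 to 109106 in *ken* samples. Per 100000 normalized counts of this sum, *Lsp1gamma* stood at 26.7, 19.4 and 21.98 in control samples, 78.3, 78.3 and 98.5 in *pri* samples and 66.2, 64.2 and 76.9 in *ken* samples. The separation of both mutants from control was thus also present relative to this sum. The larger part of the sum was the lipoprotein gene *apolpp*, named here after its value was seen. Its mean was 78886 of 119721 normalized counts in control, 73297 of 113719 in *pri* and 62527 of 103099 in *ken* samples. Whether the number of fat body cells differed was not tested.

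*Hsl*, the gene of a hormone-sensitive lipase, rose in *pri* (log2 fold change 0.45, adjusted p = 0.0306) and in *ken* (0.53, adjusted p = 0.0206). *Lsd-2*, which encodes a perilipin on lipid droplets, fell in *pri* (−0.32, adjusted p = 0.0431) and in *ken* (−0.38, adjusted p = 0.0264). In *ken*, *bmm*, the gene of a triglyceride lipase, rose (0.37, adjusted p = 0.0321) and the lipase gene *Lip4* fell (−1.02, adjusted p = 0.0212). *Hsl* was not called in *pri* without any 1 of the control or *pri* samples (adjusted p = 0.0571 to 0.127), nor in *ken* without control sample 1 or 3 (0.0873 and 0.0965). *Lsd-2* was not called in *pri* without any 1 control sample, without *pri* sample 2 or 3, or without *ken* sample 3 (adjusted p = 0.0711 to 0.149), nor with library totals (0.0502) or only the genotypes compared in the fit (0.0567), and its call in *pri* held under 9 of 18 alternatives. It was not called in *ken* without any 1 control or *ken* sample (0.0583 to 0.123). In *ken* with the samples paired by number, 3 of the 16 fell, with *Desat1*, a desaturase gene named here after its value was seen, as the additional one (log2 fold change −0.48, adjusted p = 0.0345). *bmm* was not called without any 1 control or *ken* sample or *pri* sample 3 (adjusted p = 0.0591 to 0.124), and *Lip4* without any 1 control sample (0.0626 to 0.0826).

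Of 16 genes for other proteins that the fat body secretes, 0 were called in *pri* by edgeR (2 at an unadjusted p under 0.05, 1 higher by DESeq2 and without *pri* sample 3, and 1 lower without *pri* sample 1), while in *ken* 1 rose and 4 fell. *Yp3*, which encodes a yolk protein made by the adult female, rose in *ken* from 21.5 ± 1.99 to 119 ± 26.7 normalized counts (SD, n = 3, log2 fold change 2.45, adjusted p = 0.000702). *Idgf6* fell in *ken* by 0.69 on the log2 scale, from 14644 ± 841 to 9099 ± 412 normalized counts (SD, n = 3, adjusted p = 0.00160). *Idgf4* (−0.63, adjusted p = 0.00466) and *Idgf5* (−0.62, adjusted p = 0.00916), genes of the same family of chitinase-like growth factors, fell in *ken* as well. *Idgf5* lost its call without control sample 3 (adjusted p = 0.0530) and was named here after its value was seen. *Ilp6*, which encodes an insulin-like peptide of the fat body, fell by 0.78 on the log2 scale (adjusted p = 0.00497). With *pri* sample 1 and *ken* sample 1 left out, 8 of the 16 fell and 2 rose in *ken*, and without *pri* sample 1 or without *ken* sample 2 alone, 2 rose. With the samples paired by number, 5 fell and 2 rose in *ken*, the additional ones being *Nplp2* (−0.40, adjusted p = 0.0368) and *Obp99b* (0.79, adjusted p = 0.0282), of which *Obp99b* was named after its value was seen. The summed level of the list was 60913 to 61923 normalized counts in control samples, 59265 to 76723 in *pri* samples and 41280 to 45295 in *ken* samples. The larger part of this sum was *Idgf4*, *Nplp2* and *Idgf6*. Their means were 18798, 14769 and 14644 of 61383 normalized counts in control, and 12190, 11278 and 9099 of 43469 in *ken* samples. *Lsp1gamma* in *ken* moved against the sum. Its level per 100000 of the sum was 134, 159 and 203 in *ken* samples against 57.8, 36.7 and 39.3 in control samples. How far these genes stand for the fat body in RNA of whole embryos was not tested.

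**Figure D3:**
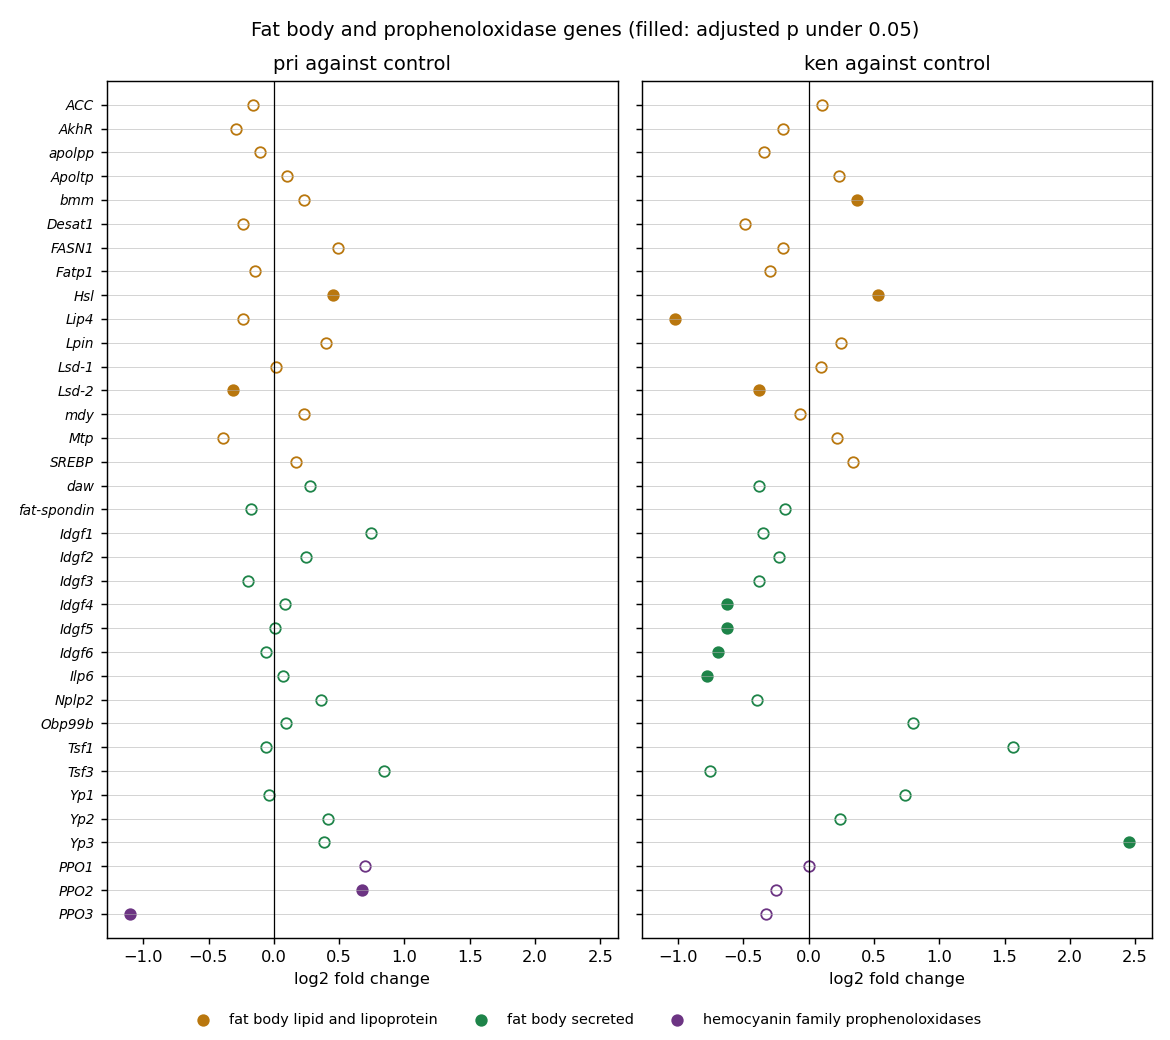
log2 fold changes (horizontal axis) of 16 lipid genes, 16 genes of secreted proteins and 3 prophenoloxidase genes in *pri* against control and *ken* against control, with 1 point per gene. Filled points passed the edgeR test. The genes scatter on both sides of 0 in *pri*, and in *ken* *Idgf4*, *Idgf5*, *Idgf6* and *Ilp6* lie between −0.78 and −0.62 while *Yp3* lies at 2.45.

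Prophenoloxidases, enzymes of melanization that are stored in blood cells, are relatives of the larval serum proteins within the hemocyanin family. *PPO2* had 6189, 6231 and 6077 normalized counts in control samples, 9218, 10624 and 9724 in *pri* samples and 4020, 6489 and 5056 in *ken* samples. It rose in *pri* (log2 fold change 0.68, adjusted p = 0.0253). *PPO1* had a value of 0.70 in *pri* that did not pass the test (adjusted p = 0.0520, passed in 9 of 18 alternatives). With the samples paired by number, *PPO1* passed (adjusted p = 0.0184). *PPO3* fell in *pri* from 37.0 ± 5.16 to 17.2 ± 4.68 normalized counts (SD, n = 3, log2 fold change −1.10, adjusted p = 0.0343). The call of *PPO2* was lost without any 1 control sample, *pri* sample 2 or *pri* sample 3 (adjusted p = 0.0677 to 0.0986), and that of *PPO3* without any 1 control sample, without *pri* sample 1 or 2, or without *ken* sample 3 (0.0566 to 0.123). *PPO3* was also not called with only the genotypes compared in the fit (0.0610) or without *pri* sample 1 and *ken* sample 1 (0.0698), and its call held under 10 of 18 alternatives. None of the 3 was called in *ken* by edgeR, DESeq2 or at an unadjusted p under 0.05. Among 8 markers of blood cells, 2 rose and 1 fell in *pri* and 1 fell in *ken*, a count that was 1 risen in *pri* with any 1 sample left out, 0 fallen in *pri* without any 1 control sample or *pri* sample 2, and 0 fallen in *ken* without control sample 3. Their summed level was 7278 to 8559 normalized counts in control samples, 5095 to 6029 in *pri* samples and 5055 to 6940 in *ken* samples. The markers did not move together in *pri*. From control to *pri*, the means of *NimC1* (131 to 267) and *Sr-CI* (241 to 334) rose and that of *NimC4* (2383 to 1335) fell. *Pxn*, the largest part of the sum, had 3825 in control and 2757 in *pri* and was not called. The part of blood cells in the prophenoloxidase values was not tested.

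Of the alcohol dehydrogenase relatives of *Fbp2*, 2 were in the table, both with a mean under 10 normalized counts, and 0 were called in either mutant by edgeR, DESeq2 or at an unadjusted p under 0.05. *Adh* shares 93.9% of its exonic bases with *Adhr*, which was not in the table, so that its counts may be too low in the same way.

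Genes of hormone response and regulators of the fat body were examined next. The list for ecdysone and juvenile hormone held receptor genes such as *usp* beside response genes such as *br* and *Kr-h1*. Of its 17 genes, 0 were called by edgeR. For *pri*, 5 of them had an unadjusted p under 0.05 and DESeq2 called 1 higher and 2 lower. With 1 sample left out, edgeR called 1 higher and 1 lower without *pri* sample 1, 1 lower without control sample 2 or *ken* sample 2, and 2 lower without *ken* sample 1. For *ken*, 1 had an unadjusted p under 0.05 and DESeq2 called 0, while edgeR with the samples paired by number called 1 lower, *Eip74EF* (log2 fold change −0.75, adjusted p = 0.0478, against 0.176 unpaired). The early ecdysone response gene *Eip74EF* had 2896 ± 881 normalized counts in control samples and 1517 ± 65.3 in *pri* samples (SD, n = 3, log2 fold change −0.93, adjusted p = 0.0738). With the samples paired by number, edgeR called it lower in *pri* as well (−0.86, adjusted p = 0.0233). *br*, another early response gene, had a log2 fold change of 0.42 in *pri* (adjusted p = 0.0550). *Blimp-1*, a repressor induced by ecdysone, had a value of −0.94 in *pri* (adjusted p = 0.0944, and 0.0258 with the samples paired by number).

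Of 8 regulators of fat body genes, 0 were called in either mutant by edgeR or DESeq2, with 0 in *pri* and 2 in *ken* at an unadjusted p under 0.05, and 1 was called lower in *ken* without *pri* sample 1. *srp*, the GATA factor required for the fat body to form, had log2 fold changes of −0.24 in *pri* (adjusted p = 0.304) and −0.20 in *ken* (adjusted p = 0.457). *Hnf4*, a nuclear receptor of lipid metabolism, had 0.33 in *ken* (adjusted p = 0.148).

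Glue protein genes of the salivary gland, which like the larval serum proteins belong to the last larval instar, were examined as another set of that stage. Of 9 in the table, 1 had a mean of at least 10 normalized counts. None was called in either mutant by edgeR or DESeq2, with 1 in *pri* and 0 in *ken* at an unadjusted p under 0.05. *Sgs1*, with 3.32 ± 2.54 normalized counts in control samples, 10.5 ± 2.18 in *pri* samples and 7.70 ± 3.46 in *ken* samples (SD, n = 3), had log2 fold changes of 1.56 in *pri* (adjusted p = 0.125) and 1.11 in *ken* (adjusted p = 0.346). The summed level of these genes was 18.0 to 50.2 normalized counts in control samples, 20.9 to 36.7 in *pri* samples and 27.6 to 48.5 in *ken* samples.

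Beside *Lsp1gamma* and *Fbp1* there were genes with larger changes. Among the 3 genes of the table on either side of each member (2 on the outer side of *Lsp1gamma*, where the chromosome arm ends), 1 rose in both mutants beside *Lsp1gamma*, 1 fell in both beside *Fbp1*, and 0 were called beside the other 4 members. *mthl8*, which encodes a receptor of the Methuselah family, lies on 3L from 22428 to 26308. It had 14.8, 22.5 and 2.28 normalized counts in control samples, 674, 705 and 755 in *pri* samples and 724, 729 and 826 in *ken* samples (log2 fold change 5.68 with adjusted p = 0.000134 in *pri* and 5.77 with adjusted p = 9.58e-05 in *ken*). *CG43149*, between *mthl8* and *Lsp1gamma* and named here after its value was seen, had means of 51.5, 217 and 171 normalized counts in control, *pri* and *ken* samples. Its log2 fold changes, 2.06 in *pri* (adjusted p = 0.0837) and 1.73 in *ken* (adjusted p = 0.175), did not pass the test. The remaining neighbours of *Lsp1gamma* had means under 5 normalized counts. For *mthl8*, as for *Lsp1gamma*, an effect of the mutations and a difference between the stocks cannot be told apart. *CG8100*, on 3L from 14083615 to 14086421, had 691, 670 and 541 normalized counts in control samples, 30.9, 18.0 and 21.97 in *pri* samples and 109, 143 and 123 in *ken* samples. Its log2 fold change was −4.74 in *pri* (adjusted p = 1.47e-05) and −2.35 in *ken* (adjusted p = 0.000229). These calls held under all 18 alternatives. *Fbp1*, its neighbour, did not share the value in *ken*.

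**Figure D4:**
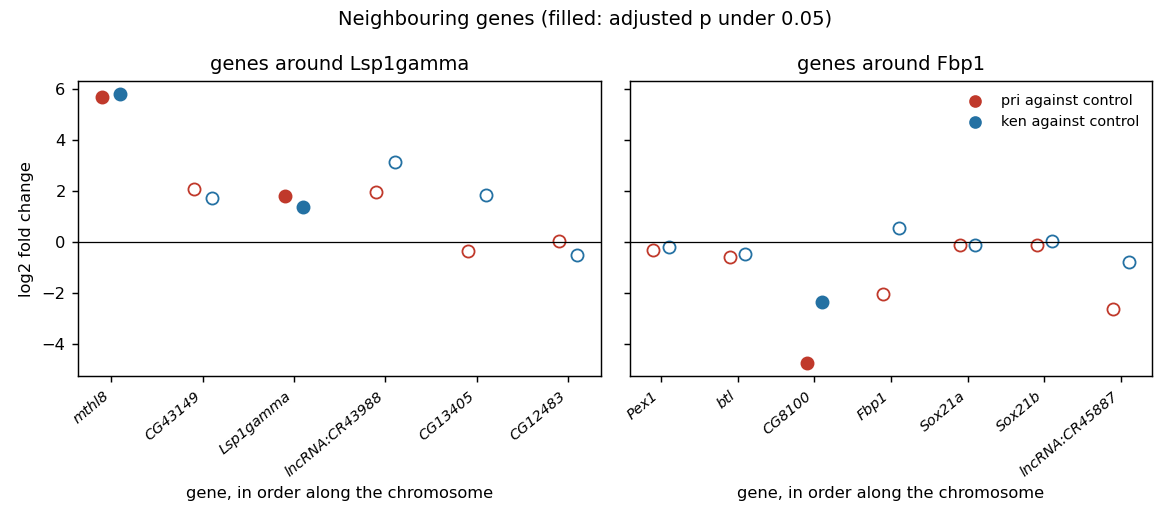
log2 fold changes (vertical axis) of the genes of the table beside *Lsp1gamma* (left) and *Fbp1* (right), in their order along the chromosome, for *pri* against control and *ken* against control. Filled points passed the edgeR test. *mthl8* stands at 5.68 and 5.77 and *CG8100* at −4.74 and −2.35, while *Lsp1gamma* stands at 1.80 and 1.37.

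The genes whose levels followed those of *Lsp1gamma* most closely were sought among 9588 genes with a mean of at least 50 normalized counts, by Pearson correlation of log2(normalized count + 1) over the 9 samples, which share their depth and genotype differences. They were *Ctl1* (r = 0.986), *lncRNA:CR44043* (r = 0.980) and *O-fut2* (r = 0.970). *Ctl1* had 1148 ± 99.0 normalized counts in control samples, 2108 ± 148 in *pri* samples and 1807 ± 37.9 in *ken* samples (SD, n = 3). For *Fbp1* they were *CG31650* (r = 0.974), *Osi12* (r = 0.968) and *Osi6* (r = 0.965), and like *Fbp1* all were highest in *ken* sample 2. *Osi6*, a member of the Osiris family, had 139377 normalized counts there, against 57635 and 75422 in the other *ken* samples and 22891 to 38548 in *pri* samples. The correlation of *Lsp1gamma* with *Fbp1* over the same 9 samples was −0.34. These coefficients describe the samples and were not tested.

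**Figure D5:**
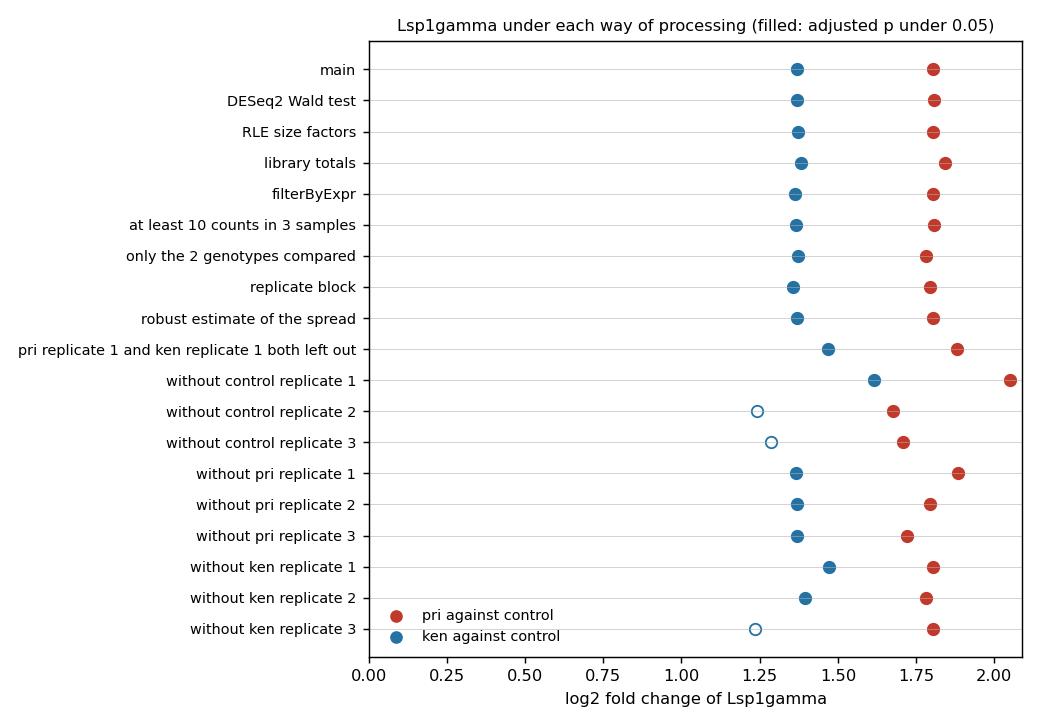
log2 fold change of *Lsp1gamma* (horizontal axis) in *pri* against control and *ken* against control as reported (top line, main) and under each of 18 alternative ways of processing. Filled points had an adjusted p under 0.05. All values lie between 1.24 and 2.05, and the open points of *ken* are those without control sample 2, control sample 3 or *ken* sample 3.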

How the data were processed

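The authors mapped paired reads of strand-specific libraries to dm6 (STAR, version 2.6.1d), summarized them by gene of FlyBase release 6.31, and left out genes with a total of 1 or less. Notes of the submitters name mouse builds, which the fly gene identifiers contradict. The deposited counts are whole numbers. The normalized counts, a signal that the authors deposited beside them, were recovered from the counts and DESeq2's size factors to within a relative difference of 4.98e-10. The setting for strand in counting is not given in the sources used here.

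Counts were tested with edgeR 4.0.16 (R 4.3.3), by a quasi-likelihood model with a mean per genotype, TMM scaling and no filter of low counts. Standard errors are the absolute log2 fold change divided by the root of F. Alternatives were DESeq2 1.42.0, other size factors, filters, fits and omitted samples. Samples of the same number deviated together in *ken* and control (correlations 0.34, 0.47 and 0.17) and in *pri* and *ken* (0.55, 0.53 and 0.12). In *pri* and control the correlations were 0.43, 0.55 and −0.11. This pairing was taken from the data and not from the labels. A fit with the number as a block is given where it changed a call in *ken*, except for the midgut genes. Of these, 1 was called higher in *ken* without the block and 3 with it. Some of its changes in *pri* are given for *Eip74EF*, *Blimp-1* and *PPO1* and in the last section. Scripts were tested on simulated data. The members and the 12 gene lists were chosen with earlier results of these data known. Genes named are the members, from each list at most 4 per comparison by adjusted p, the 3 genes most correlated with a member of mean 10 or more, called neighbours and *ken*, with exceptions stated. Of 15228 identifiers, 15159 matched the Ensembl annotation, which gave positions. The counts of *pri* were not analysed here, and no sequences were used.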

Additional observations from a re-analysis of the deposited data

How the results depend on the processing

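The direction of *Lsp1gamma* in both mutants and its call in *pri* were the same under all 18 alternatives. With the samples left out 1 at a time, the number of the 6 genes called in *ken* against control ranged from 0 to 1, being 0 without control sample 2, control sample 3 or *ken* sample 3. The number called in *pri* against *ken* was 1 with DESeq2, and that gene was *Fbp1* (log2 fold change −2.65). Values that turned in direction were those of *Fbp1* in *ken* without *ken* sample 2 (−0.76, with 1.08 as the highest when 1 sample was left out), and of *Lsp2* in *ken* without *ken* sample 1 (−0.29, with 3.49 as the highest) and without *pri* sample 1 and *ken* sample 1 (−0.28), and none of these was called. With the sample number as a replicate block, *Lsp1gamma* stood at 1.80 in *pri* and 1.36 in *ken*, and no call of a member changed. For *pri* against control, where the numbers were not taken to pair the samples (correlations of deviations −0.11 to 0.55), the block moved the count of ecdysone and juvenile hormone genes called lower from 0 to 2, of secreted protein genes called higher from 0 to 1 and of prophenoloxidase genes called higher from 1 to 2, and in the lipid list *Lsd-2* was no longer called (adjusted p = 0.0544) while *Mtp* was (0.0242). Depth limits *Lsp1alpha*, *Lsp1beta*, *Lsp2* and *Fbp2*, with 6 to 29 counts in all, and 2 of the 6 genes were in the fits filtered on low counts.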
